A study of Mus musculus with 11 samples.

Results

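The Cxcl12, neuregulin and prokineticin 2 systems comprised 10 genes here: the ligands Cxcl12, Nrg1, Nrg2, Nrg3 and Prok2, and the receptors Cxcr4, Ackr3, Erbb4, Erbb2 and Prokr2. They were found by gene symbol among the 39179 genes of a table of read counts, and each symbol matched 1 gene. RNA was sequenced from GFP-positive cells sorted from the V-SVZ (ventricular-subventricular zone), a germinal layer beside the lateral ventricles, of CD1/Swiss mice at postnatal day 2. The 5 Zeb2 fl/ko libraries came from Gsh2-Cre animals with 1 floxed and 1 null allele of Zeb2, which encodes a zinc finger transcription factor. The 6 Zeb2 fl/wt libraries came from Gsh2-Cre animals with 1 floxed and 1 wild-type allele. Both groups carried Cre under the Gsh2 promoter, RCE, a reporter allele that makes GFP after Cre has acted, and a floxed Zeb2 allele, so that the sorted control cells are expected to keep 1 working allele and the Zeb2 fl/ko cells none, while the null allele is present in every cell of the Zeb2 fl/ko animals. Whether each library came from its own animal or from pooled animals is not given in the sources used here, so p-values here reflect only how much the libraries varied.

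Neuroblasts born in the V-SVZ and interneurons born in the embryonic ganglionic eminences travel long distances tangentially before they settle. Cxcl12 is a secreted chemokine that attracts migrating interneurons through the G protein-coupled receptor Cxcr4, while Ackr3 binds and takes up the same ligand and thereby shapes its gradient. Neuregulins are EGF-like ligands of the receptor tyrosine kinase ErbB4, which pairs with ErbB2, and the prokineticin 2 receptor Prokr2 is known for guiding neuroblasts to the olfactory bulb.

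Libraries held 6833981 to 13073505 counts, and 14104 genes passed a filter on low counts and were tested with edgeR's quasi-likelihood test at an adjusted p of 0.05. All 14 markers of GABAergic neuroblasts, the lineage that the sort should yield, were detected and tested, with a summed level of 10150 to 11820 CPM (counts scaled by sequencing depth) in Zeb2 fl/ko libraries and 9887 to 12940 CPM in Zeb2 fl/wt libraries. Of the 14, 1 passed as higher, 1 as lower and 12 did not pass, against 4.42% called over all tested genes. The sum leans on abundant markers such as Tubb3 (mean 3244 CPM in Zeb2 fl/ko and 3830 CPM in Zeb2 fl/wt libraries). It does not measure the share of these cells. The count of Zeb2 itself did not distinguish the groups: it averaged 302 ± 63.8 CPM in Zeb2 fl/ko libraries (SD, n = 5) and 238 ± 46.7 CPM in Zeb2 fl/wt libraries (SD, n = 6), with a log2 fold change of 0.35 (adjusted p = 0.294). A gene-level count also covers exons outside a deleted part, so it does not check the genotype. None of the 5 Zeb2 fl/ko libraries held counts of Y-linked genes, and neither did Zeb2 fl/wt 4 and 5, whereas the other 4 Zeb2 fl/wt libraries did, so that the groups differed in the sex of the animals as well. Zeb2 fl/ko 5 and Zeb2 fl/wt 6 stood apart from the rest on the second principal component, on the same side of it (-64.4 and -60.6). What these 2 libraries shared was not tested. Zeb2 fl/ko 5 held 215 CPM of choroid plexus markers, of which Ttr alone made up 204 CPM, against a median sum of 6.01 CPM over the Zeb2 fl/wt libraries, and Zeb2 fl/wt 6 held the most oligodendrocyte precursor markers (3186 CPM). Without both, in a fit chosen after seeing the data, Cxcr4 (log2 fold change -1.69, adjusted p = 0.0449) and Prokr2 (0.79, adjusted p = 0.0123) still passed. In bulk samples, fewer cells of a type and less RNA per cell cannot be told apart, and this holds for every difference that follows.

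Of the 10 genes, 9 were tested and Nrg2 was too low to pass the filter. Prokr2 rose and Cxcr4 fell in Zeb2 fl/ko cells, and the other 7 did not pass the test. Over all tested genes 4.42% passed, 2.68% as higher and 1.74% as lower. For the same 2 of the 9 genes the libraries of the groups did not overlap in CPM, against 4.91% of all tested genes. The median log2 fold change of the 9 was -0.04, and that of all tested genes was -0.02. The median absolute log2 fold change was 0.85 over the 9 and 0.235 over all tested genes. These medians were not matched for level, and fold changes of genes with few reads are less precise (SE 0.94 for Nrg3 and 0.69 for Prok2). Of the 9, 4 had an unadjusted p under 0.05, against 17.3% of all tested genes. Among these 4 was Prok2, which passed the filter only through its Zeb2 fl/wt libraries. Apart from Prokr2, no gene of the 10 averaged more than 67.7 CPM in either group.

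**Figure D1:**
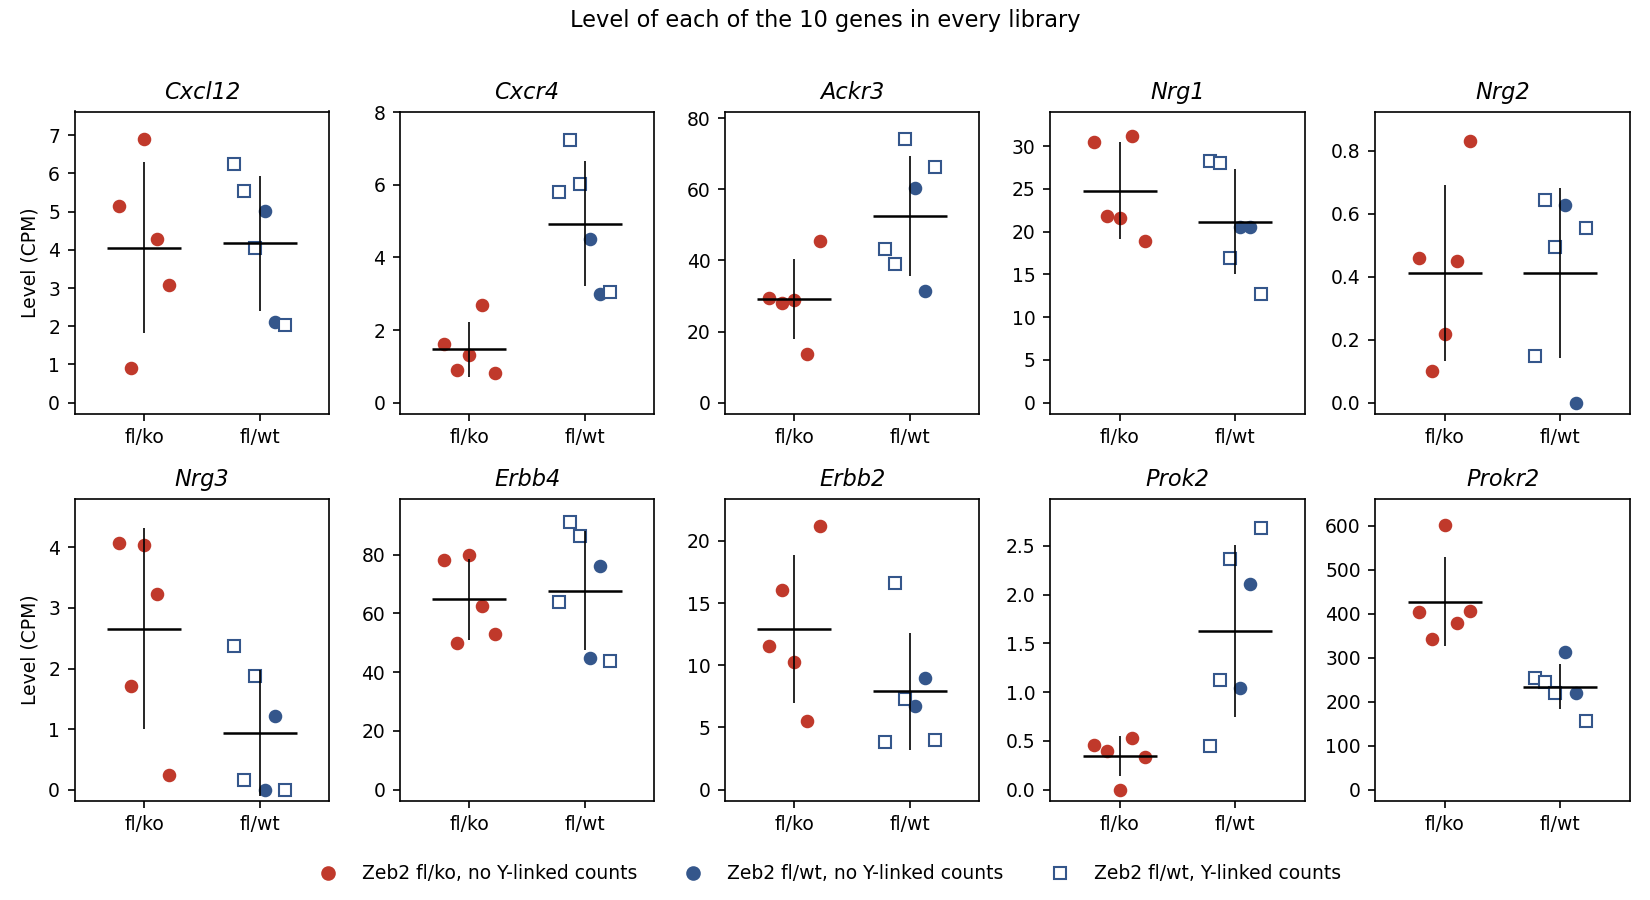
Level of each of the 10 genes in CPM, on axes that include 0, in the 5 Zeb2 fl/ko libraries (red) and the 6 Zeb2 fl/wt libraries (blue; open squares held Y-linked counts). Bars are group means with SD; all Zeb2 fl/ko libraries lie below all Zeb2 fl/wt libraries for Cxcr4 and above them for Prokr2, and the groups overlap for the other 8 genes.

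The sequences just before the transcription starts of Cxcr4 and Prokr2, the genes that passed the test, and of Ackr3, the other Cxcl12 receptor, are shown because Zeb2 is known to bind the E-box CACCTG and the shorter core CACCT within it. They are the 250 bases before the start in RefSeq (GRCm38.p6), 5′ to 3′ on the gene's strand, at chr1:128592300-128592549 (minus strand) for Cxcr4, chr1:90203730-90203979 (plus strand) for Ackr3 and chr2:132385448-132385697 (minus strand) for Prokr2. Capitals mark CACCTG or, where it is not complete, CACCT.
Cxcr4: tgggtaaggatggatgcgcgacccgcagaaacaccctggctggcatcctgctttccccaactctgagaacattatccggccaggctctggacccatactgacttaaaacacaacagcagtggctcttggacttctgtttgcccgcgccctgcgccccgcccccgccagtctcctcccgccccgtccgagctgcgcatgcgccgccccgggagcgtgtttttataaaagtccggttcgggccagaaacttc
Ackr3: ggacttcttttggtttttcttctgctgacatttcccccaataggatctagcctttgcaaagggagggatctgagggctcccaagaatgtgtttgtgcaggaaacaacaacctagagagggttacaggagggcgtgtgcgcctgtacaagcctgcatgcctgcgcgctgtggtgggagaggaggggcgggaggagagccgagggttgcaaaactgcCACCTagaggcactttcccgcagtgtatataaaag
Prokr2: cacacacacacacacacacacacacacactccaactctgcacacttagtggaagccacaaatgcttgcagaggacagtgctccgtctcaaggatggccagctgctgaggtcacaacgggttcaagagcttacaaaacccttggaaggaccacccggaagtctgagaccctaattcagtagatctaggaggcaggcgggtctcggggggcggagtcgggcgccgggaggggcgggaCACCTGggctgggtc
On either strand, CACCTG (or its complement CAGGTG) occurred in the Prokr2 window, from 15 to 10 bases before the start, and in none of the other 7 windows matched (those of Cxcl12, Cxcr4, Ackr3, Nrg3, Erbb4, Erbb2 and Prok2; Nrg1 and Nrg2 had no window in the table used). Of 32851 windows of the same length over all genes, 17.2% held it. CACCT (or AGGTG), a search added after the first was seen, occurred once in Ackr3, from 35 to 31 bases before the start, 2 times in Nrg3, once in Erbb4 and, within the longer motif, once in Prokr2, against 46% of all windows. These are letter matches in a short window and say nothing of whether Zeb2 was bound there.

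Cxcl12 itself, the ligand (chromosome 6, 117168535 to 117181367, plus strand; coordinates here and below are GRCm38), was at a low level in both groups. It stood at 5.15, 0.903, 6.89, 4.27 and 3.07 CPM in Zeb2 fl/ko libraries 1 to 5, and at 2.03 CPM at the lowest, 4.53 CPM at the median and 6.25 CPM at the highest in Zeb2 fl/wt libraries. Zeb2 fl/ko 3 was the highest of all 11 libraries and Zeb2 fl/ko 2 the lowest, and the groups overlapped throughout. Its log2 fold change was -0.04 with a 95% interval of -1.04 to 0.97 (adjusted p = 0.98). With this spread of the libraries, a difference of up to about a doubling or a halving was not excluded. The sign was not settled either: it was positive among libraries without Y-linked counts (0.19) and in 5 of the 11 fits that left out 1 library.

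Blood vessel, mural and meningeal cells are known sources of Cxcl12 in the brain. All but 1 of 10 endothelial markers had counts, Tek being at 0 in every library, and the list summed to 2.70 to 10.4 CPM in Zeb2 fl/ko libraries and 2.72 to 11.6 CPM in Zeb2 fl/wt libraries. The 10 mural markers, all detected in at least 1 library, summed to 14.8 to 24.2 CPM in Zeb2 fl/ko libraries and 12.5 to 46.1 CPM in Zeb2 fl/wt libraries, and the 10 meningeal markers to 3.45 to 7.23 CPM in Zeb2 fl/ko libraries and 1.48 to 8.77 CPM in Zeb2 fl/wt libraries. None of the 8 markers of these lists that could be tested passed. Their part in the Cxcl12 counts was not tested.

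Cxcr4, the signalling receptor for Cxcl12 (chromosome 1, 128588199 to 128592293, minus strand), fell in Zeb2 fl/ko cells. It stood at 1.61, 0.903, 1.31, 2.70 and 0.831 CPM in Zeb2 fl/ko libraries 1 to 5, and at 3.00 CPM at the lowest, 5.15 CPM at the median and 7.24 CPM at the highest in Zeb2 fl/wt libraries. Every Zeb2 fl/ko library lay below every Zeb2 fl/wt library, with Zeb2 fl/ko 4 the nearest to the controls. The means were 1.47 ± 0.756 CPM (SD, n = 5) in Zeb2 fl/ko libraries and 4.94 ± 1.72 CPM (SD, n = 6) in Zeb2 fl/wt libraries, a 3.32-fold lower level (log2 fold change -1.73, SE 0.43, 95% interval -2.65 to -0.81, adjusted p = 0.0327). The raw counts behind these values were small, at 21, 9, 12, 36 and 10 reads in the Zeb2 fl/ko libraries, 88 in all, against 27 to 90 reads in a Zeb2 fl/wt library and 293 in all.

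The direction of Cxcr4 held in every alternative fit, but its call did not. Cxcr4 passed without Zeb2 fl/ko 4, Zeb2 fl/wt 5 or Zeb2 fl/wt 6, and lost its call without any one of the other 8 libraries (adjusted p up to 0.0811, log2 fold changes from -2.07 to -1.59 over the 11 fits). Among libraries without Y-linked counts Zeb2 fl/wt 4 and 5 stood at 4.496 and 3.00 CPM, again above all 5 Zeb2 fl/ko libraries, and the log2 fold change was -1.33 (adjusted p = 0.466). DESeq2 gave the same size of change with a smaller adjusted p of 0.00109.

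Cxcr4 is also made by dividing progenitors and by endothelial cells, whose markers are given above. The 10 markers of dividing cells summed to 259 to 426 CPM in Zeb2 fl/ko libraries and 404 to 724 CPM in Zeb2 fl/wt libraries, all 10 were tested, and 2 of them fell and none rose. The 10 markers of astrocytes and radial glia summed to 903 to 1788 CPM in Zeb2 fl/ko libraries and 1030 to 1960 CPM in Zeb2 fl/wt libraries, with 1 higher and 1 lower. Of 12 markers of striatal projection neurons, all tested, 6 fell and 1 rose, with a median log2 fold change of -1.51, and their sum of 341 to 526 CPM in Zeb2 fl/ko libraries lay wholly below that of 687 to 1998 CPM in Zeb2 fl/wt libraries. Of 9 tested markers of oligodendrocyte precursors, 1 fell and none rose, the median was -1.25, and their sum was 825 to 1312 CPM in Zeb2 fl/ko libraries and 1088 to 3186 CPM in Zeb2 fl/wt libraries. Over all tested genes, 2.68% passed as higher and 1.74% as lower. The part of these cells in the Cxcr4 difference was not tested.

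Ackr3, the scavenger receptor (chromosome 1, 90203980 to 90216751, plus strand), was the more abundant of the Cxcl12 receptors per kb of exons in both groups. It stood at 29.4, 27.9, 28.9, 13.7 and 45.5 CPM in Zeb2 fl/ko libraries 1 to 5, and at 31.45 CPM at the lowest, 51.7 CPM at the median and 74.2 CPM at the highest in Zeb2 fl/wt libraries. Of the Zeb2 fl/ko libraries only number 5 reached the control range, and number 4 was the lowest of all 11. Its log2 fold change of -0.85 (SE 0.28, 95% interval -1.45 to -0.25) did not pass the test (unadjusted p = 0.00841, adjusted p = 0.111). It passed without Zeb2 fl/ko 5 (-1.08, adjusted p = 0.0450) and narrowly in DESeq2 (-0.84, adjusted p = 0.0496). In edgeR, Ackr3 was at -0.65 (adjusted p = 0.555) among libraries without Y-linked counts and -0.68 (adjusted p = 0.569) with the Y-linked level as a covariate.

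Whether Cxcr4 changed more than Ackr3 was asked of the ratio of their counts within each library. The log2 ratio of Cxcr4 to Ackr3 averaged -4.29 ± 1.25 in Zeb2 fl/ko libraries (SD, n = 5) and -3.40 ± 0.695 in Zeb2 fl/wt libraries (SD, n = 6). The difference of -0.89 did not pass an exact two-sided permutation test over the 11 libraries (p = 0.171), so that no unequal change of the receptors was shown. Single libraries moved it: without Zeb2 fl/ko 4, which had the highest ratio of all 11 libraries, it was -1.38 (exact p = 0.0238), and without Zeb2 fl/ko 5, which had the lowest, it was -0.54 (exact p = 0.376). Over the 3 ratios tested here, including the 2 below, the Benjamini-Hochberg adjusted p was 0.171 for each, and the smallest p that 5 against 6 libraries allow is 0.00216.

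**Figure D2:**
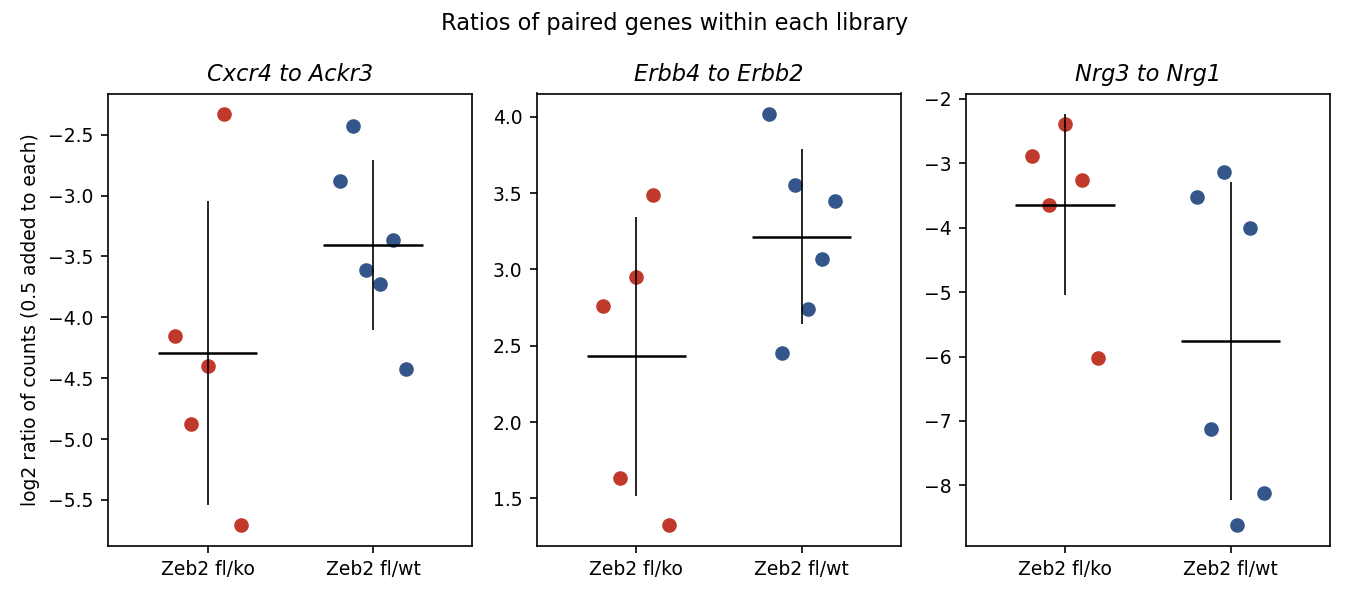
The log2 ratio of counts within each library for Cxcr4 to Ackr3, Erbb4 to Erbb2 and Nrg3 to Nrg1, in Zeb2 fl/ko libraries (left, red) and Zeb2 fl/wt libraries (right, blue), with group means and SD; 0.5 was added to each count, and the axes do not start at 0. The groups overlap in all 3 panels, and in the first the highest point is Zeb2 fl/ko 4 at -2.33.

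Around these receptors, 18 other chemokine system genes were listed, of which 4 had enough counts to be tested and 1 passed, as lower. This was Cxcl14, a chemokine, which averaged 17.0 ± 2.76 CPM in Zeb2 fl/ko libraries and 50.4 ± 14.2 CPM in Zeb2 fl/wt libraries, with no overlap (log2 fold change -1.57, adjusted p = 3.5e-04). Its call held in all 21 alternative fits, unlike that of Cxcr4. Of 26 tested genes that act downstream of Cxcr4 (G protein subunits, arrestins, kinases and Rac regulators), 2 rose, 2 fell and 22 did not pass, against 4.42% called over all tested genes. Elmo1 and Dock1, which encode partners in a complex that activates Rac, moved in opposite directions: Elmo1 averaged 468 ± 37.8 CPM in Zeb2 fl/ko libraries and 277 ± 33.7 CPM in Zeb2 fl/wt libraries (log2 fold change 0.76, adjusted p = 4.4e-04), while Dock1 averaged 11.2 ± 1.58 CPM in Zeb2 fl/ko libraries and 21.0 ± 6.46 CPM in Zeb2 fl/wt libraries (-0.91, adjusted p = 0.0351). Pak3, a kinase activated by Rac and Cdc42, rose (0.58, adjusted p = 0.0142) and Rgs16, which speeds the inactivation of G proteins, fell (-0.63, adjusted p = 0.0291). Without 1 library the call of Dock1 was lost in 7 of 11 fits and that of Rgs16 in 5 of 11. Among libraries without Y-linked counts Pak3 (adjusted p = 0.0551), Dock1 (0.253) and Rgs16 (0.0589) did not pass, and with the Y-linked level as a covariate Pak3 (0.117) and Dock1 (0.304) did not.

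Of the neuregulins, Nrg1 (chromosome 8, 31814551 to 32884029, minus strand) had the highest level per kb of exons. It stood at 30.5, 21.9, 21.5, 31.2 and 18.85 CPM in Zeb2 fl/ko libraries 1 to 5, and at 12.8 CPM at the lowest, 20.5 CPM at the median and 28.3 CPM at the highest in Zeb2 fl/wt libraries. Zeb2 fl/ko 1 and 4 exceeded every Zeb2 fl/wt library and the other 3 lay within their range. For Nrg1 the log2 fold change was 0.23 with a 95% interval of -0.26 to 0.72 (adjusted p = 0.673). Reads of Gm26578, whose exons overlap those of Nrg1 by 482 bases on the opposite strand, could be among these counts, as no strand setting is given, but that gene averaged 1.05 CPM.

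Nrg3, a neuregulin that binds ErbB4 (chromosome 14, 38368952 to 39473088, minus strand), was low and uneven. It stood at 4.07, 1.71, 4.05, 3.22 and 0.249 CPM in Zeb2 fl/ko libraries 1 to 5, and at 0 CPM at the lowest, 0.692 CPM at the median and 2.38 CPM at the highest in Zeb2 fl/wt libraries. Zeb2 fl/ko 1, 3 and 4 exceeded every Zeb2 fl/wt library, Zeb2 fl/ko 5 held only 3 reads, and Zeb2 fl/wt 4 and 6 held none. With a log2 fold change of 1.53, Nrg3 had a 95% interval of -0.48 to 3.55 and did not pass (adjusted p = 0.442). The log2 ratio of Nrg3 to Nrg1 averaged -3.64 ± 1.41 in Zeb2 fl/ko libraries and -5.75 ± 2.47 in Zeb2 fl/wt libraries, and the difference of 2.11 did not pass either (exact permutation p = 0.121).

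Nrg2, another neuregulin (chromosome 18, 36017652 to 36197380, minus strand), was at the limit of detection, with 6, 1, 2, 6 and 10 reads in Zeb2 fl/ko libraries 1 to 5 and 0 to 8 reads in Zeb2 fl/wt libraries. It averaged 0.412 ± 0.28 CPM in Zeb2 fl/ko libraries and 0.411 ± 0.27 CPM in Zeb2 fl/wt libraries. A count of 3 reads, the upper limit that a count of 0 allows, equals 0.225 to 0.446 CPM in these libraries. With 25 reads over the Zeb2 fl/ko libraries and 26 over the Zeb2 fl/wt libraries, Nrg2 did not pass the filter. A difference in Nrg2 was therefore not tested.

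Erbb4, the receptor for the neuregulins (chromosome 1, 68032186 to 69108059, minus strand), was read deeply enough to narrow its difference. It stood at 78.3, 49.9, 79.9, 62.5 and 53.1 CPM in Zeb2 fl/ko libraries 1 to 5, and at 43.9 CPM at the lowest, 69.9 CPM at the median and 91.1 CPM at the highest in Zeb2 fl/wt libraries. All 5 Zeb2 fl/ko libraries lay within the range of the Zeb2 fl/wt libraries. For Erbb4 the log2 fold change was -0.07 (SE 0.21, adjusted p = 0.919), and its 95% interval of -0.52 to 0.39 held neither a doubling nor a halving. Its sign was positive among libraries without Y-linked counts (0.11).

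Erbb2, the co-receptor that binds no ligand by itself (chromosome 11, 98412470 to 98437716, plus strand), had a lower mean level per kb than Erbb4. It stood at 11.5, 16.1, 10.3, 5.55 and 21.2 CPM in Zeb2 fl/ko libraries 1 to 5, and at 3.87 CPM at the lowest, 6.997 CPM at the median and 16.65 CPM at the highest in Zeb2 fl/wt libraries. Zeb2 fl/ko 5 was the highest of all 11 libraries, and the groups overlapped. Its log2 fold change of 0.70 (SE 0.40, 95% interval -0.15 to 1.55) did not pass the test (adjusted p = 0.401). The log2 ratio of Erbb4 to Erbb2 averaged 2.43 ± 0.916 in Zeb2 fl/ko libraries and 3.21 ± 0.574 in Zeb2 fl/wt libraries, and the difference of -0.78 did not pass (exact permutation p = 0.126).

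Other genes of the ErbB system were counted in the same way, against 4.42% called over all tested genes. Of 8 tested genes among 13 other EGF family ligands and receptors, 1 fell and none rose, with a median log2 fold change of -0.62 over the 8. The gene was Tgfa, a ligand of the EGF receptor, at 80.6 ± 12.5 CPM in Zeb2 fl/ko libraries and 130 ± 35.5 CPM in Zeb2 fl/wt libraries (-0.69, adjusted p = 0.0438), with overlap between the groups and a call that was lost in 9 of the 11 fits without 1 library. Of 25 tested sheddases, adaptors and inhibitors of neuregulin signalling, 2 rose and none fell, with a median of 0.12. Vav3, a guanine nucleotide exchange factor, averaged 16.2 ± 4.24 CPM in Zeb2 fl/ko libraries and 7.03 ± 0.951 CPM in Zeb2 fl/wt libraries (1.21, adjusted p = 0.00514). Pik3r1, the regulatory subunit of PI3 kinase, averaged 175 ± 28.1 CPM in Zeb2 fl/ko libraries and 109 ± 24.8 CPM in Zeb2 fl/wt libraries (0.68, adjusted p = 0.0362), and its call was lost in 7 of the 11 fits without 1 library. Neither passed among libraries without Y-linked counts (adjusted p = 0.212 for Vav3 and 0.1505 for Pik3r1) or with the Y-linked covariate (0.175 for Vav3 and 0.304 for Pik3r1).

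Prok2, the ligand of Prokr2 (chromosome 6, 99711299 to 99726392, minus strand), was close to the limit of detection. It stood at 0.461, 0.401, 0, 0.525 and 0.332 CPM in Zeb2 fl/ko libraries 1 to 5, and at 0.446 CPM at the lowest, 1.62 CPM at the median and 2.68 CPM at the highest in Zeb2 fl/wt libraries. These values rest on 21 reads over the 5 Zeb2 fl/ko libraries and 99 reads over the 6 Zeb2 fl/wt libraries. Prok2 passed the filter on low counts only through its Zeb2 fl/wt libraries, so the filter itself favoured a fall in Zeb2 fl/ko libraries. Zeb2 fl/ko 1 and 4 reached the lowest Zeb2 fl/wt library and the other 3 lay below all of them. The log2 fold change of -2.18 had an SE of 0.69 and a 95% interval of -3.65 to -0.72 and did not pass (unadjusted p = 0.00638, adjusted p = 0.0964). DESeq2 called it, at -2.22 (adjusted p = 0.0217). In edgeR, Prok2 was at -2.13 (adjusted p = 0.49) among libraries without Y-linked counts and -2.17 (adjusted p = 0.369) with the Y-linked level as a covariate. Without the filter, edgeR gave -2.17 as well (adjusted p = 0.217).

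Prokr2, the receptor (chromosome 2, 132337733 to 132385447, minus strand), rose in Zeb2 fl/ko cells. It stood at 405, 344, 603, 379.9 and 406 CPM in Zeb2 fl/ko libraries 1 to 5, and at 155 CPM at the lowest, 232 CPM at the median and 313 CPM at the highest in Zeb2 fl/wt libraries. Every Zeb2 fl/ko library lay above every Zeb2 fl/wt library, with Zeb2 fl/ko 3 well above the rest of its group. The means were 427 ± 101 CPM (SD, n = 5) in Zeb2 fl/ko libraries and 234 ± 51.5 CPM (SD, n = 6) in Zeb2 fl/wt libraries, a 1.82-fold higher level (log2 fold change 0.87, SE 0.17, 95% interval 0.51 to 1.23, adjusted p = 0.00685).

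The call of Prokr2 held in all 11 fits that left out 1 library, with log2 fold changes of 0.71 to 0.97 and adjusted p of 0.00443 to 0.0234. It was lost among libraries without Y-linked counts (0.69, adjusted p = 0.218), where Zeb2 fl/wt 4, the highest control, still lay below all 5 Zeb2 fl/ko libraries, and with the Y-linked level as a covariate (0.72, adjusted p = 0.234). The first of these rests on 2 Zeb2 fl/wt libraries. The marker sums given beside Cxcr4 come from the same libraries, and their part in the Prokr2 difference was not tested. The ligand Prok2 did not pass the test. It entered the test only through its Zeb2 fl/wt levels, so its sign is not set against that of Prokr2.

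The rest of the prokineticin system was at a low level. Prok1, the other prokineticin, had no count in any library. Prokr1, the other receptor, averaged 3.56 ± 1.16 CPM in Zeb2 fl/ko libraries and 2.70 ± 2.93 CPM in Zeb2 fl/wt libraries (log2 fold change 0.39, adjusted p = 0.843). Mrap2, an accessory protein that is known to bind prokineticin receptors, averaged 9.68 ± 3.17 CPM in Zeb2 fl/ko libraries and 2.14 ± 2.04 CPM in Zeb2 fl/wt libraries (2.16, adjusted p = 0.0575). It did not pass, with overlapping groups, though it did in DESeq2 (adjusted p = 0.0058), without the filter on low counts (adjusted p = 0.045) and without Zeb2 fl/wt 1 or 5. In edgeR, Mrap2 was at 1.56 (adjusted p = 0.381) among libraries without Y-linked counts and 1.61 (adjusted p = 0.5425) with the Y-linked covariate.

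**Figure D3:**
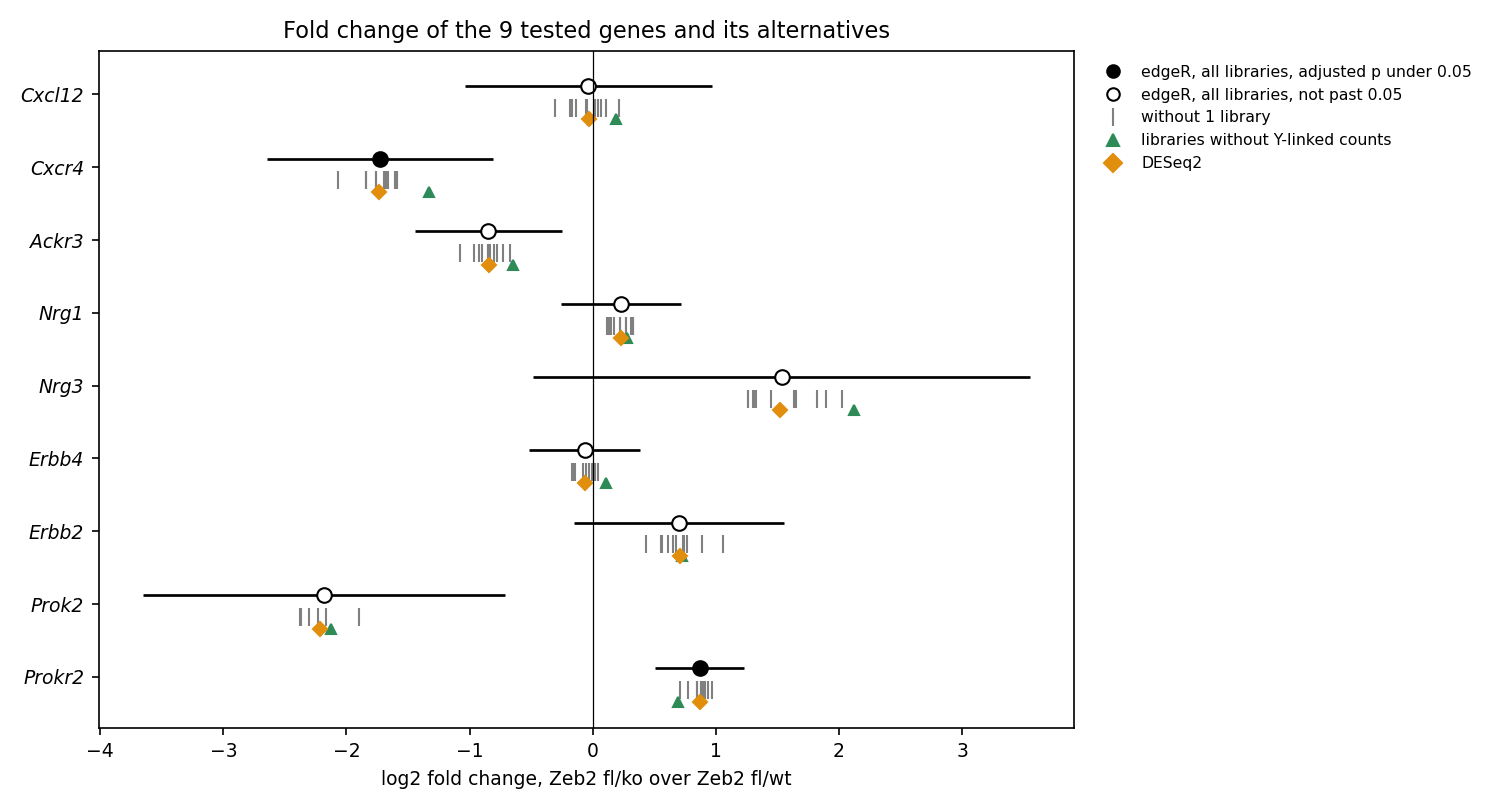
The log2 fold change of the 9 tested genes, Zeb2 fl/ko over Zeb2 fl/wt, with its 95% interval (circles; filled where the adjusted p passed 0.05), and below it the value without each library, among libraries without Y-linked counts, and in DESeq2. Cxcr4 and Prokr2 stay on their side of 0 in all of these, Cxcl12 and Erbb4 lie on both sides of it, and Prok2 was tested in 6 of the 11 fits without 1 library.

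Scaled per kilobase of exons so that genes can be compared, Prokr2 was the most abundant of the 10 genes in both groups. Its mean level was 54.0 CPM per kb in Zeb2 fl/ko libraries and 29.6 CPM per kb in Zeb2 fl/wt libraries, and its level per kb exceeded that of 89.5% of the tested genes. Ackr3 followed with a level of 8.69 CPM per kb in Zeb2 fl/ko libraries and 15.65 CPM per kb in Zeb2 fl/wt libraries. Erbb4 came next, with 5.24 CPM per kb in Zeb2 fl/ko libraries and 5.48 CPM per kb in Zeb2 fl/wt libraries. In Zeb2 fl/ko libraries the order then ran Erbb2, Nrg1, Cxcr4, Cxcl12, Nrg3, Prok2 and Nrg2. In Zeb2 fl/wt libraries it ran Cxcr4, Nrg1, Erbb2, Prok2, Cxcl12, Nrg3 and Nrg2.

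Most neighbours in these orders were not separated by the spread of the libraries. In Zeb2 fl/ko libraries the ranges of neighbours were apart only between Prokr2 and Ackr3 and between Nrg1 and Cxcr4. In Zeb2 fl/wt libraries they were apart only between Ackr3 and Erbb4, and Prokr2 exceeded Ackr3 in 5 of the 6 libraries. Cxcr4 stood at 0.814 CPM per kb in Zeb2 fl/ko libraries and 2.73 CPM per kb in Zeb2 fl/wt libraries, next to Nrg1 at 2.40 CPM per kb in Zeb2 fl/ko libraries and 2.04 CPM per kb in Zeb2 fl/wt libraries. By mean level per kb, each ligand lay below its main receptor (Cxcr4, Erbb4 or Prokr2) in both groups. The gap was smallest between Cxcl12 and Cxcr4 in Zeb2 fl/ko libraries, where the ranges overlapped and Cxcr4 was higher in 4 of 5 libraries.

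**Figure D4:**
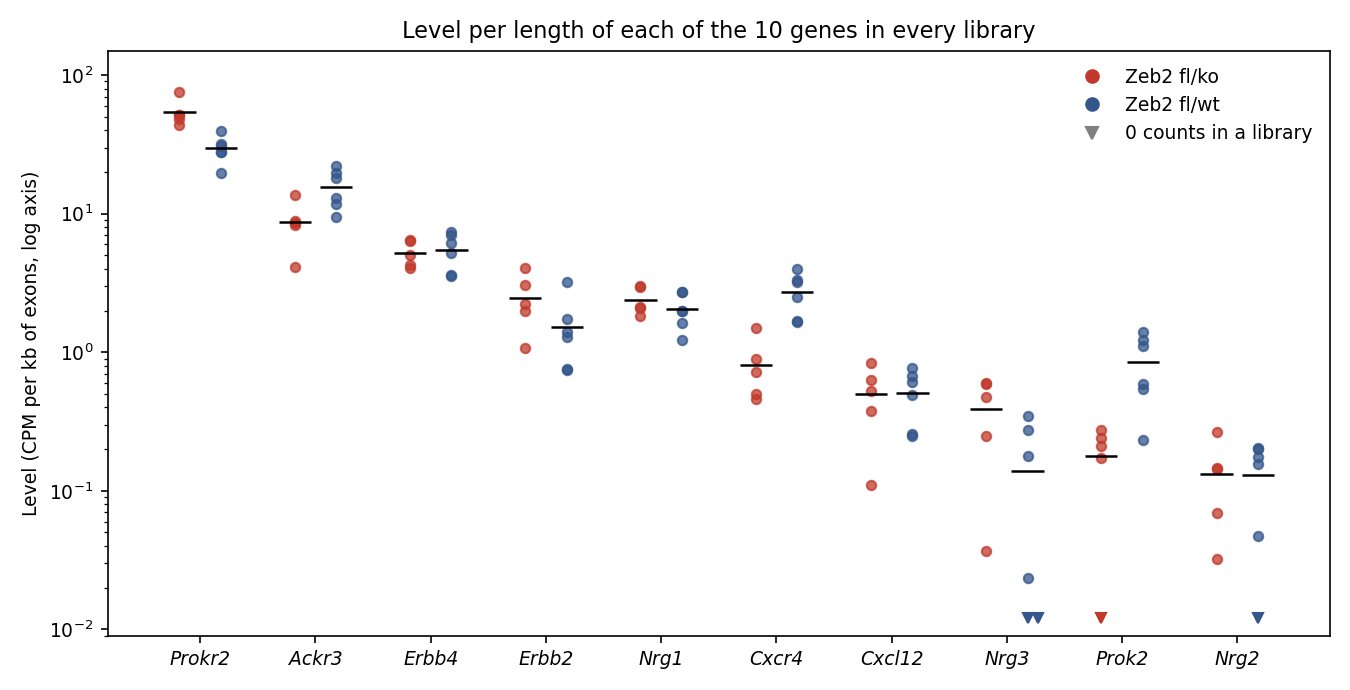
Level of each of the 10 genes in CPM per kb of exons (log axis) in every Zeb2 fl/ko library (left, red) and Zeb2 fl/wt library (right, blue), with bars at the group means and triangles for libraries with 0 counts. The genes run from Prokr2, at 54.0 CPM per kb in Zeb2 fl/ko libraries and 29.6 CPM per kb in Zeb2 fl/wt libraries, down to Nrg2, at 0.131 CPM per kb in both.

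Among all other genes whose mean log2 CPM was 1 or more, those whose levels over the 11 libraries were most like Cxcr4 were Wwtr1, Aga and Vim. Their root mean square differences from it, on mean-centred log2 CPM, were 0.404, 0.409 and 0.421, against 0.944 for Cxcr4's own variation about its mean. The match covered the libraries of both groups. A fold change in the direction of Cxcr4, or of Prokr2 below, thus follows from how these genes were picked and is no separate finding. Vim, an intermediate filament gene of radial glia and other progenitors, averaged 106 ± 20.5 CPM in Zeb2 fl/ko libraries and 235.5 ± 43.0 CPM in Zeb2 fl/wt libraries (log2 fold change -1.15, adjusted p = 3.87e-04). Aga, a lysosomal enzyme gene, passed as well (-1.32, adjusted p = 0.0341), although its call was lost in 8 of the 11 fits without 1 library, and Wwtr1, a transcriptional co-activator of the Hippo pathway, did not (-1.10, adjusted p = 0.0889). The genes most like Prokr2 were Plch1, Xrn1 and Lypla1, at 0.189, 0.214 and 0.222, against 0.522 for Prokr2's own variation. Plch1, a phospholipase C gene, had a log2 fold change of 0.92 (adjusted p = 0.0421) and Lypla1, a depalmitoylating enzyme gene, of 0.75 (adjusted p = 0.0420), and both calls were lost without some single libraries, in 9 and 8 of the 11 fits. Xrn1, a 5′ to 3′ exoribonuclease gene, did not pass (0.66, adjusted p = 0.0537). Among libraries without Y-linked counts Aga (adjusted p = 0.394), Plch1 (0.343) and Lypla1 (0.386) did not pass, and Vim did (0.0175).

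**Figure D5:**
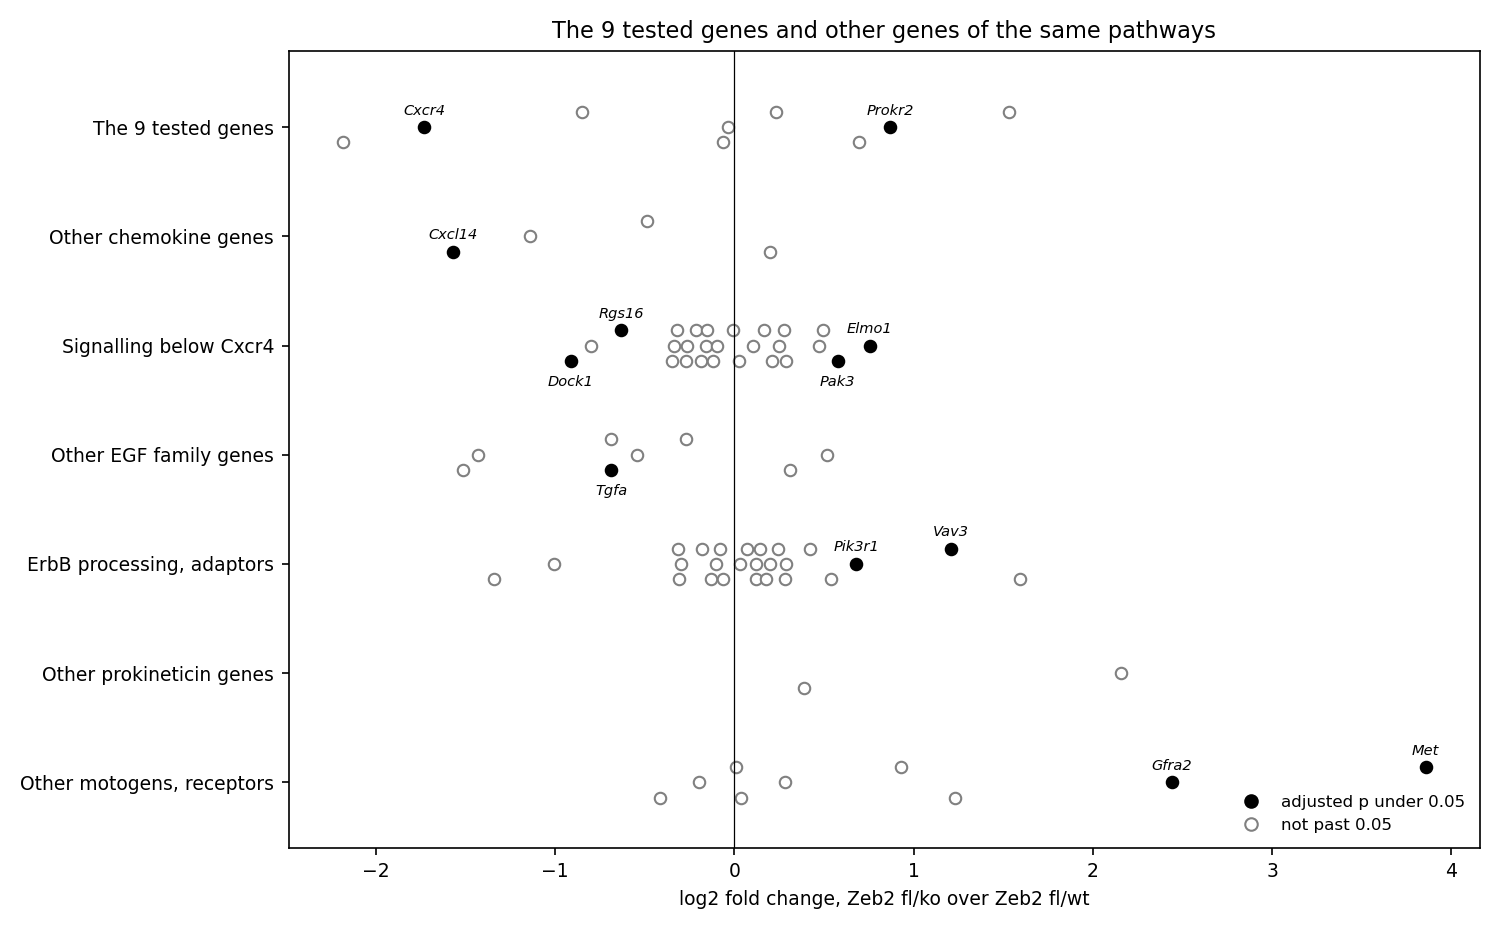
The log2 fold change, Zeb2 fl/ko over Zeb2 fl/wt, of the 9 tested genes and of the tested genes on each list named at the left, 1 point per gene, filled and named where the adjusted p passed 0.05; vertical offsets within a list only separate points. The highest of the called values are Met at 3.86 and Gfra2 at 2.44, and the lowest is Cxcr4 at -1.73.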

How the data were processed

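The 11 libraries hold RNA of sorted V-SVZ cells, per the labels. The authors deposited 1 table of raw counts with a row per Ensembl gene. Per the submitters' processing notes, the tools were TopHat2 2.0.13 and featureCounts 1.4.6, and mm10 and GRCm38 are the builds. Strand setting, annotation release and handling of multiply aligned reads are not given in the sources.

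Symbols, coordinates and exon lengths were taken from GENCODE M21 (GRCm38) and from a gene name table. With these, 37693 genes had a symbol, with at least 99.7% of the counts of each library. No 2 replicates agreed within sampling noise, so each library counted as 1 sample. The test was edgeR 4.0.16 under R 4.3.3 (filterByExpr, TMM scaling, robust quasi-likelihood fit, Benjamini-Hochberg adjustment over all 14104 genes kept), after it had been tested on simulated data. All adjusted p-values are from this test unless DESeq2 1.42.0 is named. CPM are TMM-scaled, SE were derived from the F statistic, and floors of 3 counts cover counting error only. Ratios used an exact permutation test over every regrouping of the libraries (Python 3.11.15). Likeness used log2(CPM + 0.25).

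The 10 genes and all lists were chosen with earlier results of these data known, and no list was tested as a set. Some genes within these rules and counts are not reported here. Named genes were the 10; from each related list up to 4 members past the threshold with the smallest adjusted p, or 2 with the highest level where none passed; the 3 genes most like each of the 10 that passed; and Zeb2. Alternatives were RLE scaling, no composition scaling, no filter, a filter of CPM of at least 1 in 5 libraries, leaving out each library, leaving out Gm42418, a Y-linked covariate, libraries without Y-linked counts, a replicate block, DESeq2 and, for ratios, other added counts. Leaving out Zeb2 fl/ko 5 and Zeb2 fl/wt 6 together was added after seeing the data. The same replicate numbers in the labels did not pair libraries of the groups.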

Additional observations from a re-analysis of the deposited data

Results flagged for a closer look

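Of 26 groups of libraries checked for a value far from the rest, 1 stood out, and chance gives about 1 in 20. Prokr2 stood at 602.7 CPM in Zeb2 fl/ko 3, and the gap to the next library made up 0.76 of the range of the 5 Zeb2 fl/ko libraries. Without that library Prokr2 still passed edgeR's test (log2 fold change 0.71, adjusted p = 0.0234).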

How the results depend on the processing

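The number of genes called was 623 (378 higher, 245 lower). This total was 186 (120 higher, 66 lower) with the Y-linked covariate, 218 (150 higher, 68 lower) among libraries without Y-linked counts, 1201 (662 higher, 539 lower) with DESeq2, and from 418 to 656 (269 to 405 higher, 149 to 251 lower) without 1 library. The replicate block, added although same-numbered libraries did not deviate together (correlations of their deviations from -0.126 to 0.0194), gave 421 calls, 143 of them lower.

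Of the 10 genes, 2 were called. Over all tested genes the share was 4.42%. That number was 1 without the filter (Prokr2), where 2.36% of all tested genes were called. It was 1 with the replicate block, against 3.02% of all. There Prokr2 was at 0.75 (adjusted p = 0.0369) and Cxcr4 at -1.90 (adjusted p = 0.0675). It was 0 under the Y-linked covariate (1.32% of all) and 0 among libraries without Y-linked counts (1.46% of all). DESeq2 called 4 (Cxcr4, Ackr3, Prok2 and Prokr2), against 4.83% of the genes given a p-value there. Without 1 library the number was 1 to 2, against 2.92% to 4.7% of all tested genes. At an unadjusted p under 0.05 edgeR gave 3 of the 10 with the covariate (11% of all tested genes) and 1 (11.9% of all) among libraries without Y-linked counts (5 Zeb2 fl/ko and 2 Zeb2 fl/wt); DESeq2 was not run in these settings. Cxcr4 was at -1.72 (adjusted p = 0.0542) without the filter and -1.28 under that covariate (adjusted p = 0.39).

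Cxcl12 changed sign with the Y-linked covariate (0.23), among libraries without Y-linked counts (0.19) and in 5 fits without 1 library, which ranged from -0.31 to 0.21. Erbb4 changed sign with the Y-linked covariate (0.16), among libraries without Y-linked counts (0.11) and in 3 fits without 1 library, which ranged from -0.167 to 0.039. The log2 ratio of Cxcr4 to Ackr3 differed by -1.38 to -0.54 without 1 library and passed 0.05 without Zeb2 fl/ko 4. Scaling by RLE or by totals moved the median of all genes by 0.0026 and -0.0164 on the log2 scale. The cause of these changes was not tested. Depth limits Cxcl12, Cxcr4, Nrg2, Nrg3 and Prok2 most, at 36 or fewer reads of Cxcr4, for example, in a Zeb2 fl/ko library.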

Other observations

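Receptors and ligands of other guidance factors for tangential migration gave 2 calls among 9 tested genes of 18 listed, both higher and none lower, with a median log2 fold change of 0.28. The share called over all tested genes was 4.42%. Met, the receptor of hepatocyte growth factor, stood at 9.22 to 18.97 CPM in Zeb2 fl/ko libraries and 0 to 2.61 CPM in Zeb2 fl/wt libraries (log2 fold change 3.86, adjusted p = 0.00108 in edgeR). Gfra2, a receptor of the GDNF family ligands, stood at 19.3 to 51.8 CPM in Zeb2 fl/ko libraries and 1.04 to 12.1 CPM in Zeb2 fl/wt libraries (2.44, adjusted p = 0.00324). Both passed in every alternative fit but that with the Y-linked covariate (adjusted p = 0.0884 for Met and 0.0686 for Gfra2).

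Of 8 transcription factors of interneurons that leave the medial ganglionic eminence (MGE), 3 rose, 1 fell and 4 did not pass, with a median log2 fold change of 0.32. Over all tested genes, 2.68% passed as higher and 1.74% as lower. The summed level of the 8 was 1026 to 1392 CPM in Zeb2 fl/ko libraries and 365 to 470 CPM in Zeb2 fl/wt libraries. Sox6 averaged 571 ± 111 CPM in Zeb2 fl/ko libraries and 108 ± 10.2 CPM in Zeb2 fl/wt libraries (adjusted p = 1.02e-07), and Lhx6 and Nkx2-1 lay above every Zeb2 fl/wt library as well. Cxcr4, which migrating MGE interneurons are known to carry, fell in the same libraries in which Sox6, Lhx6 and Nkx2-1 rose. The libraries hold mixed cells, and which of them carried Cxcr4 was not tested.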
